A study of Mus musculus with 21 samples.

Results

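Protein-coding gene bodies shorter than 2 kb, from the start to the end of the gene on the genome, were taken from the RefSeq annotation of GRCm38.p6 on chromosomes 1 to 19. There were 2274 of them among 21887 protein-coding bodies on chromosomes 1 to 19, X and Y, after 17 short bodies with ribosomal protein symbols were left out. The choice used length, position and symbol and no measured value. Of the 2274, 1988 overlapped no base of a longer RefSeq gene of any type and are called stand-alone here. The other 286 lay at least partly inside a longer gene, 199 of them a longer protein-coding gene and 87 other gene types alone, and they are described apart. Histone genes made up 69 of the short bodies (64 stand-alone and 5 overlapping). Chemosensory receptor genes (olfactory, vomeronasal, trace amine-associated and taste receptors) made up 1212, of which 1186 were stand-alone.

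H3K36me3, trimethylated lysine 36 of histone H3, was profiled by chromatin immunoprecipitation and sequencing in C2C12, a mouse myoblast line that differentiates into muscle cells in culture. Wild-type (WT) cells had 2 replicate libraries each at day 0, in control medium on days 1 and 5, and on the same 2 days under methionine restriction. Setd2 knockout (KO) line 1 and KO line 2 each had 1 library in the same 5 conditions, so a KO value is always 1 library, and the peak names in the lists call these libraries KO replicates 1 and 2. The labels do not say whether WT replicates are separate cultures, so p-values measure the spread between these samples, which may be technical.

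SETD2 deposits H3K36me3 while it travels with elongating RNA polymerase II, and the mark therefore builds up along a transcribed body toward its 3′ end. A short body gives the polymerase little distance over which the mark can accumulate. Many of the shortest mouse genes have a single coding exon: replication-dependent histones, chemosensory receptors and keratin-associated proteins are examples, beside fast-responding regulators such as the Id and Ier genes.

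In each library the peaks were merged, and cover is the percent of a gene body inside peaks. A body with at least 50% cover is called marked. The merged peaks spanned 109.9 to 183 Mb in WT lists, 0.307 to 74.1 Mb in KO line 1 and 0.0082 to 7.13 Mb in KO line 2, and read depth is unknown because peak lists do not carry it. The Setd2 body was covered to between 45.6% and 82.8% in the WT libraries, between 0% and 24.0% in KO line 1 and 0% in KO line 2. That is the mark over the gene, and it says nothing about the deletion. The 5 myoblast markers were unequal in WT: Des (desmin) was covered to between 34.5% and 89.1% and Cdh15 (M-cadherin) to between 68.3% and 96.7%, but Myf5 reached 12.2% and Pax7 7.07% at most. Myod1 was at 50.1% to 78.4% without restriction and at 0% in the 4 restricted libraries. Of the differentiation markers, Myog (myogenin) was at 0% at day 0 and under restriction, at 70.6% and 73.2% in the day 1 and at 91.7% and 93.4% in the day 5 control libraries. Myh3, Acta1, Ckm and Tnnt3 were also at 0% at day 0 and at 60.6% to 96.5% in the day 5 control libraries. At restricted day 5 Myh3 was at 56.7% and 57.8%, Tnnt3 at 28.4% and 40.8%, Acta1 at 0% and 17.3% and Ckm at 11.4% and 3.65%. Of the fibroblast markers, Col1a1, also a gene of cultured mesenchymal cells, was at 21.5% to 92.3% in WT, where Dcn reached 34.7%, Pdgfra 3.23% and Dpt 0%. In KO line 1 at restricted day 5 Dcn was at 47.6% and Dpt at 18.1%. The liver gene Alb, the T-cell gene Cd3e and the globin gene Hbb-bs were at 0% in all 20 libraries, and the leukocyte gene Ptprc was at 0.253% in KO line 1 at restricted day 5 and 0% elsewhere.

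The promoter windows of 6 short genes are shown because each stands for a different pattern of the mark described below. The sequences are from RefSeq (GRCm38.p6), run from 250 bases before to 50 bases after the annotated start, and are written 5′ to 3′ along the gene. Capitals mark the letters TATAAA, searched on both strands. They also mark the letters CCAAT on both strands. A match on the other strand appears as its reverse complement. The TATAAA of H4c1 and 1 CCAAT of Olfr811 lie after the annotated start. Krtcap3, a membrane protein gene, lay inside a peak it shared with its longer neighbour. Gadd45g, a growth arrest and stress gene, carried a peak of its own that was not called in restricted WT libraries. Uts2r, the urotensin 2 receptor gene, gained cover at day 5. Id3, an inhibitor of myogenic bHLH factors, had cover at day 0 and none later. Olfr811, an olfactory receptor gene, was covered in KO lists and in no WT list. H4c1, a histone H4 gene, had peaks at its promoter rather than over its body.
Krtcap3, chr5:31251456-31251755, plus strand: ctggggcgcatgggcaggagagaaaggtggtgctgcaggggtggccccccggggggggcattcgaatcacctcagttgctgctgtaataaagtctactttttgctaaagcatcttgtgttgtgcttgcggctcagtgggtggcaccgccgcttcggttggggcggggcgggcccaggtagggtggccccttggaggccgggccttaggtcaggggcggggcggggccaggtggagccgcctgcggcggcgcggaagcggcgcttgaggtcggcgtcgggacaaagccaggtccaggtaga
Gadd45g, chr13:51846425-51846724, plus strand: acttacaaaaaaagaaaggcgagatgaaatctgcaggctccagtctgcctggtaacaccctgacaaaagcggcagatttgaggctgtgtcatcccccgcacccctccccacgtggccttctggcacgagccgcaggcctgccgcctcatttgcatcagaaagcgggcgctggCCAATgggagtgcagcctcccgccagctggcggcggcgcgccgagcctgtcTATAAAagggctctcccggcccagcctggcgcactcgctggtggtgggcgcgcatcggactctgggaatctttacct
Uts2r, chr11:121160021-121160320, plus strand: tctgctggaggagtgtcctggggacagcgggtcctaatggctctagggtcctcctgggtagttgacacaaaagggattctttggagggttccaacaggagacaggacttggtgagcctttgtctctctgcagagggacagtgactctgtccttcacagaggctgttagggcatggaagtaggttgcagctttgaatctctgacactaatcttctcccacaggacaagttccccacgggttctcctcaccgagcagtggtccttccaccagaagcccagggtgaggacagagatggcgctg
Id3, chr4:136143572-136143871, plus strand: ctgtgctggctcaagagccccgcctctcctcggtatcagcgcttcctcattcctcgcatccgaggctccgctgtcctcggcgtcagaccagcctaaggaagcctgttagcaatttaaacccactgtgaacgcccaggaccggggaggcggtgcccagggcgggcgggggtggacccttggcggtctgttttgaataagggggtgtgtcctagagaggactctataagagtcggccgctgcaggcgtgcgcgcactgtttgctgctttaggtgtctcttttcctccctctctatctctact
Olfr811, chr10:129802474-129802773, minus strand: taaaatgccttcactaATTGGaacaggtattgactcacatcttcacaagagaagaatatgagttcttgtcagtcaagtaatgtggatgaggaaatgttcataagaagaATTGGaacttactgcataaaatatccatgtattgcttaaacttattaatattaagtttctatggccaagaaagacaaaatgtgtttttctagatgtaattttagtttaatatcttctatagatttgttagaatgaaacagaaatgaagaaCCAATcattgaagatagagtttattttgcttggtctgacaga
H4c1, chr13:23761200-23761499, minus strand: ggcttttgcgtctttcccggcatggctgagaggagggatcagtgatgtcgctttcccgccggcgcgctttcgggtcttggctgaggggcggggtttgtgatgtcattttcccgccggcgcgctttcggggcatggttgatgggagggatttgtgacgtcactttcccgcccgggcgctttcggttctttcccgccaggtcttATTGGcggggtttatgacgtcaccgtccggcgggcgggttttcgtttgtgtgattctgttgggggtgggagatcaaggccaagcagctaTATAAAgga

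These windows differed in base composition. Gadd45g, Krtcap3 and H4c1 held 21, 22 and 27 CG dinucleotides, Uts2r held 4 and Olfr811 held 0. Over the 45 of 55 stand-alone short bodies marked in at least 1 WT library that had a window in the table, the median was 13 CG and 59.0% GC. It was 1 CG and 35.0% GC for 1015 chemosensory receptors, 10 CG and 45.7% GC for 65 histone genes, and 7 CG and 52.7% GC over all 32851 windows. The TATA letters were found in 5 of the 45 windows (11.1%), 42.9% of the receptor windows, 53.8% of the histone windows and 13.6% of all windows. The CCAAT letters were found in 42.2%, 45.1%, 80% and 37.4%. These matches are a description of the letters and not of bound sites.

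Short bodies were rarely marked. In WT libraries 9 to 42 of the 1988 stand-alone short bodies were marked (0.453% to 2.11%), against 2076 to 4533 of 15874 stand-alone bodies of at least 2 kb (13.1% to 28.6%). The longer share was 12.4 to 28.9 times the short share of the same WT library. A total of 1864 stand-alone short bodies (93.8%) were not touched by a single base of a peak in any WT library, 55 were marked in at least 1, and 4 were marked in all 10. Chemosensory receptors weigh on these shares: without them, 1.12% to 5.24% of 802 stand-alone short bodies were marked.

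The share differed with length inside the group as well. At day 0 it was 1.28% of 78 bodies under 0.5 kb and 0.746% ± 0.117 (SD, n = 2) of 1207 bodies of 0.5 to 1 kb. It was 2.45% ± 0.165 (SD, n = 2) of 428 bodies of 1 to 1.5 kb and 6.91% ± 1.54 (SD, n = 2) of 275 bodies of 1.5 to 2 kb. Receptors made up 980 of the 1207 bodies of 0.5 to 1 kb. Without them the shares of the 4 classes were 1.28%, 3.74%, 4.36% and 7.42% at day 0. Across the limit, bodies of 2 to 5 kb reached 19.4% ± 0.592 (SD, n = 2) and bodies of 5 to 20 kb reached 34% ± 0.278 (SD, n = 2). The share was lower again, at 6.49% ± 1.86 (SD, n = 2), for bodies of at least 100 kb. At the 2 kb limit itself, Cox7c (1998 bp), a cytochrome c oxidase subunit gene, was covered to between 0% and 43.9% in WT libraries. Crh (1996 bp), which overlaps a longer gene, was at 0% in all of them. Just above the limit, Alkbh7 (2002 bp) ranged from 0% to 37.3% and Fkbpl (2004 bp) was at 31.2% in 1 library and 0% in the other 9.

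**Figure D1:**
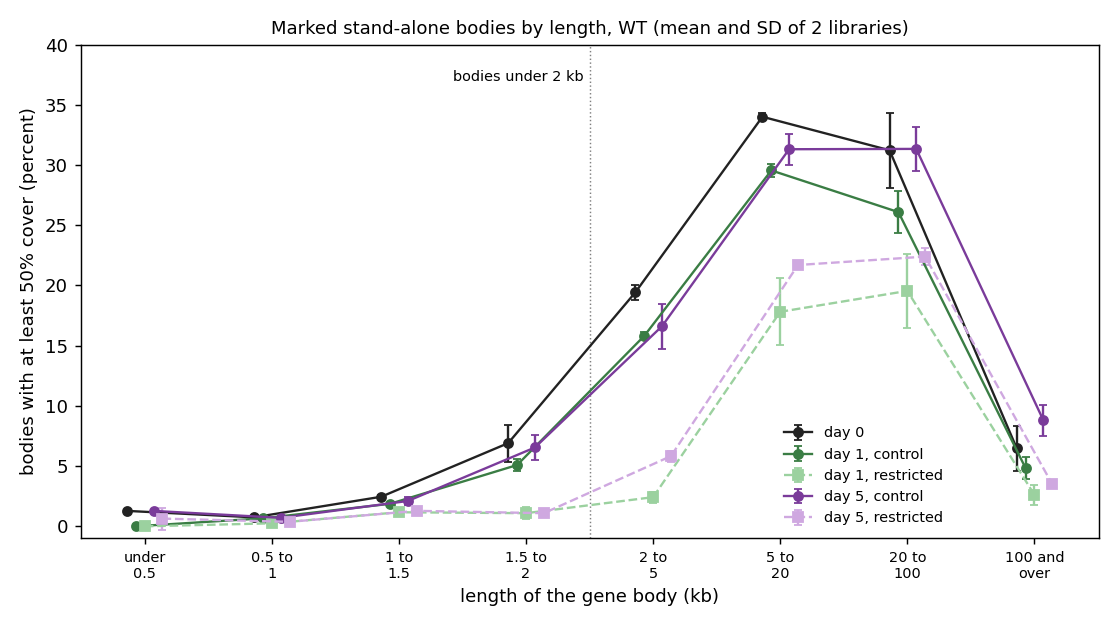
Percent of stand-alone protein-coding bodies with at least 50% cover (y axis) by length of the body in kb (x axis) in the 5 WT groups; points are means and bars the SD of 2 libraries, dashed lines are methionine restriction. The share at day 0 goes from 1.28% under 0.5 kb to 34% at 5 to 20 kb, and both restricted groups lie below the control groups of the same day in the classes from 0.5 kb upward.

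Nearness to a longer gene went with the mark. At day 0, 14% of the 171 stand-alone short bodies less than 1 kb from a longer gene were marked in each replicate. The share was 4.07% ± 0.524 (SD, n = 2) of 270 bodies at 1 to 5 kb, 0.302% ± 0.257 (SD, n = 2) of 827 at 5 to 20 kb and 0.278% of 720 at 20 kb or more. A longer gene is any gene longer than the body itself, so the nearest to Olfr808 is Olfr809, also a short body. Receptor genes sit in clusters and make up most of the last classes. Without them, 12 of 198 bodies at 1 to 5 kb (6.06%) was the highest WT count, against 26 of 162 under 1 kb (16%), 4 of 274 at 5 to 20 kb (1.46%) and 2 of 168 at 20 kb or more (1.19%).

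The marked short bodies fell into those under a peak that also reached a longer gene and those with a peak of their own. At day 0, the merged peak on 24 of 37 and 25 of 42 marked bodies also touched a longer gene, and these peaks had a median width of 8142.5 and 7049 bp. The other 13 and 17 bodies had peaks that touched no longer gene, of a median width of 1993 and 1805 bp. The median width of all WT peaks was 767 to 909 bp per library. The position of the peak differed between these sets. Under a shared peak, the median body was covered to 100% in its first part, its last part (split at the midpoint) and its promoter window in both day 0 libraries. Under an own peak, the median cover of the first part was 50.9% and 44.3%, that of the last part was 100%, and the promoter window was at 0% in 11 of 13 and 12 of 13 bodies with a known strand. The 4 libraries of days 1 and 5 in control medium showed the same order, with a median of 25.6% to 55.5% in the first part and 100% in the last part of bodies with an own peak. Under restriction the sets held 7, 2, 10 and 8 bodies with a shared peak and 6, 7, 3 and 6 with an own peak. Of the own-peak bodies 5, 5, 3 and 6 had a known strand, and in these few the order was weaker. The median first part was at 77.6% and 61.3% at day 1 and 87.9% and 96.0% at day 5. The last part was at 100% and 56.7% at day 1 and at 100% and 98.6% at day 5. In the second day 1 library the first part was thus above the last, and in the second day 5 library the promoter window had a median of 34.7%.

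**Figure D2:**
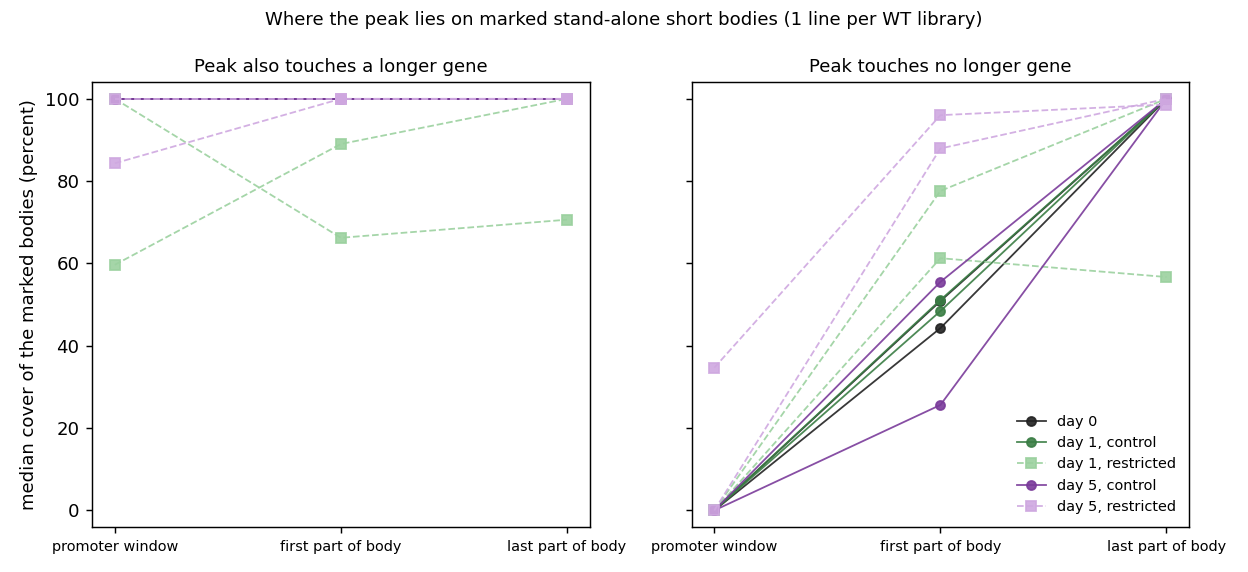
Median cover in percent (y axis) of the promoter window, the first part and the last part (x axis) of marked stand-alone short bodies, with 1 line per WT library; left, bodies whose peak also touches a longer gene, right, bodies whose peak touches none; dashed lines are methionine restriction. In the control and day 0 libraries of the right panel the medians go from 0% in the promoter window to 100% in the last part.

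Of the 5 stand-alone short bodies with the highest mean cover over the 10 WT libraries, 3 lay less than 1 kb from a longer gene. Npff, which encodes a neuropeptide precursor, lies 162 bp from Tarbp2 and was covered to 80.3% in 1 restricted day 1 library and 100% in the other 9. Krtcap3 lies 76 bp from Ift172 and was at 68.4% in 1 restricted day 1 library and 100% in the other 9, and its promoter window shown above was at 100% in all 10. Gpr151, an orphan receptor gene, ranged from 86.7% to 100%. Spata25, a testis gene 514 bp from Zswim1, was at 69.99% and 24.0% at restricted day 1 and between 99.4% and 100% elsewhere in WT. The predicted gene LOC108167320, at 7589 bp from the nearest longer gene, was at 88.8% and 72.8% at restricted day 1 and between 90.9% and 100% in the other 8 WT libraries, under peaks of its own that touched no longer gene. Of these 5, Npff, Krtcap3, Gpr151 and LOC108167320 are the 4 stand-alone bodies marked in all 10 WT libraries.

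Methionine restriction was compared with control medium at days 1 and 5 in WT cells. At day 1, 29 and 31 stand-alone short bodies were marked in control medium and 13 and 9 under restriction. At day 5, 41 and 32 were marked in control medium and 13 and 14 under restriction. The groups did not overlap on either day. The mean count differed by -63.3% at day 1 and -63.0% at day 5, and that of longer stand-alone bodies by -36.3% and -33.3%. The share of short bodies differed by -1.06 percentage points between media (two-sided exact permutation test within day, p = 0.0556, the smallest p that 36 arrangements can give, and 0.0926 after Benjamini-Hochberg adjustment over 5 tests). The log2 ratio of the short to the longer share differed by -0.79 (exact permutation test, p = 0.0556, adjusted 0.0926). With 75% cover as the mark it differed by -0.27, by -0.69 at day 1 and by 0.15, the opposite direction, at day 5. Restricted lists spanned less of the genome, 109.9 to 134 Mb against 140 to 183 Mb in control medium at these days. In lists trimmed to the same covered length by the authors' fold enrichment, the share still differed by -0.79 percentage points and the log2 ratio by -0.99, both again at the smallest p.

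The larger loss was not particular to bodies under 2 kb. Marked bodies of 1.5 to 2 kb differed in number by -78.6% at day 1 and -83.3% at day 5 under restriction, and bodies of 1 to 1.5 kb by -37.5% and -38.9%. For bodies of 2 to 5 kb the values were -84.7% and -64.9%, for bodies of 5 to 20 kb -39.7% and -30.7%, and for bodies of at least 100 kb -46.1% and -60.3%. The differences between these length classes were not tested.

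**Figure D3:**
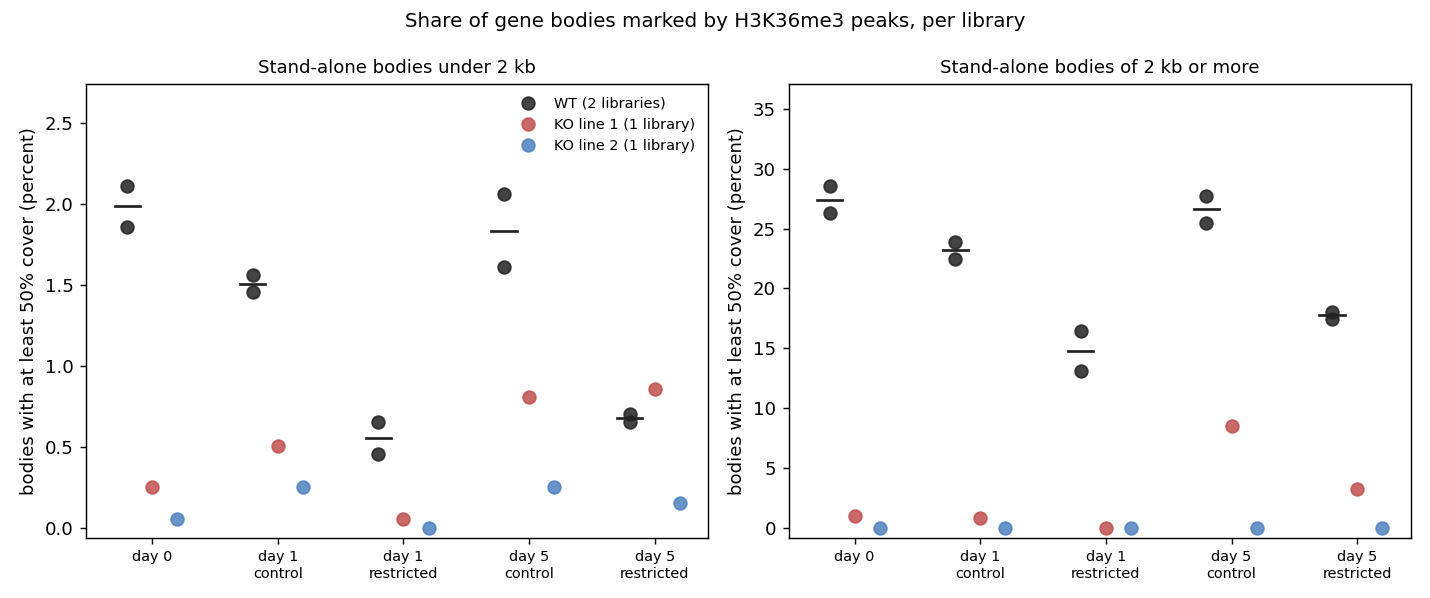
Percent of stand-alone bodies with at least 50% cover (y axis) in each library by condition (x axis), under 2 kb on the left and 2 kb or more on the right; points are libraries, with KO line 1 and KO line 2 in colour, and short bars are the means of the 2 WT libraries. The restricted WT libraries lie between 0.453% and 0.704% for short bodies, below all WT libraries in control medium and at day 0.

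Single bodies were tested with limma over 9681 protein-coding bodies of any length with a mean WT cover of at least 5%. Of the stand-alone short bodies, 95 of 1988 passed that filter, and of the other 1893, 1864 were at 0% in every WT library and 29 had a mean of at most 4.73%, with up to 46.5% in 1 library. Of the 95, 19 passed through 1 group alone, with a mean under 5% over the other 8 WT libraries, so a difference from that group was built in. They were 11 bodies of day 0, among them Id1, Id3 and Ier2, 2 of day 1 and 6 of day 5 in control medium, among them Mymx, Ucn and Uts2r. At day 1, 49 of the 95 were lower under restriction at an adjusted p under 0.05, where 35.8% of all tested bodies were, and 0 were higher, where 2.3% of all were. At day 5, 50 were lower, where 41.4% of all were, and 0 were higher, where 4.26% of all were. Without the bodies whose difference was built in, 49 of 93 were lower at day 1 (52.7%, against 35.9% of all) and 45 of 89 at day 5 (50.6%, against 40.5%). Without adjustment, limma gave 55 lower and 0 higher at day 1 and 53 lower and 0 higher at day 5, and no other tool was run. The median difference over the 95 was -21.9 percentage points at day 1 and -24.4 at day 5, against -8.11 and -9.24 over all 9681. A total of 36 of the 95 (37.9%) were lower on both days, against 26.2% of all tested bodies. Of the bodies lower at day 1, the share also lower at day 5 was alike, at 73.5% of the short and 73.0% of all. The day 1 and day 5 comparisons share no samples but share 1 estimate of the spread of each body. The restriction effect itself differed between the days in 8 of the 95 by a limma interaction, with 6 more negative at day 5, where 3.53% of all tested bodies were, and 2 less negative, where 1.58% were. The balance turned to 4 and 6 with stricter peaks and to 1 and 6 at equal covered length, and 3 of the 6 (Ucn, Uts2r and Mymx) are among the bodies above whose difference was built in.

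Gadd45g showed the change in full. It was covered to 83.4% and 79.6% at day 0, 90.01% and 92.6% in the day 1 and 96.8% and 86.7% in the day 5 control libraries, and to 0% in all 4 restricted libraries. The groups stood apart, and the peak of the control libraries lay over most of the body, with its last part at 100%. It did not reach the TATA-bearing promoter window shown above, which was at 0% in all 20 libraries. The difference was -91.3 points (SE 4.21, limma adjusted p = 2.27e-05) at day 1 and -91.8 points (SE 4.21, limma adjusted p = 6.71e-06) at day 5. Gadd45g lies 52996 bp from the nearest longer gene. Of 22 stand-alone short bodies marked in all 6 WT libraries without restriction, 4 were at 0% in all 4 with it, and 4 others stayed marked in all 4. The 4 at 0% were Gadd45g, Tmsb10 (thymosin beta 10, an actin-binding peptide), Pcbp1 (an RNA-binding protein) and the uncharacterized 1700092M07Rik. They were named after their values were seen. Tmsb10 was at 58.7% to 66.0% in those 6 libraries, and Pcbp1 at 62.8% to 79.9%.

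Some bodies under a peak shared with a neighbour also fell. Cd68, a macrophage scavenger receptor gene 765 bp from Eif4a1, was at 100% and 96.9% in control libraries of day 1 and 0% in both restricted ones, and at 94.0% and 98.2% against 15.9% and 0% at day 5. The differences were -98.5 and -88.1 points (limma adjusted p = 2.5e-05 and 1.65e-05). B3galt4, a galactosyltransferase gene 216 bp from Wdr46, was at 100% in the 4 control libraries, at 0% and 16.4% at restricted day 1 and at 22.4% and 0% at restricted day 5. Ufsp1, a UFM1-specific peptidase gene 39 bp from Srrt, was at 85.6% and 82.5% against 0% and 0% at day 1. The replicates of these restricted pairs differed where the cover was not 0%.

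The fate of the whole set at day 5 differed with the kind of peak. Of 30 stand-alone short bodies marked in both day 5 control libraries, 17 had a peak that touched a longer gene in both, 11 had a peak that touched none in either, and 2 differed between the libraries. Under restriction 8 of the 17 stayed marked in both libraries and 1 (Ucn) was at 0% in both. Of the 11, 2 (Gpr151 and LOC108167320) stayed marked and 9 were at 0% in both: 1700092M07Rik, Fau, Gadd45g, Ier3, Junb, Pcbp1, Tmsb10, Utp3 and Uts2r. The median cover over restricted libraries was 59.4% for the 17 and 0% for the 11. At day 1 the split was weaker, with 3 of 15 bodies under shared peaks and 3 of 7 with own peaks at 0%. Of these, 4 of the 15 and 2 of the 7 stayed marked in both restricted libraries, so the shares that stayed were alike. A body could also change class: 1700092M07Rik was under a shared peak in both day 1 control libraries. The split by kind of peak was made after the values were seen and was not tested. For Fau the annotation lists 2 pseudogene copies, which makes its cover uncertain.

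**Figure D4:**
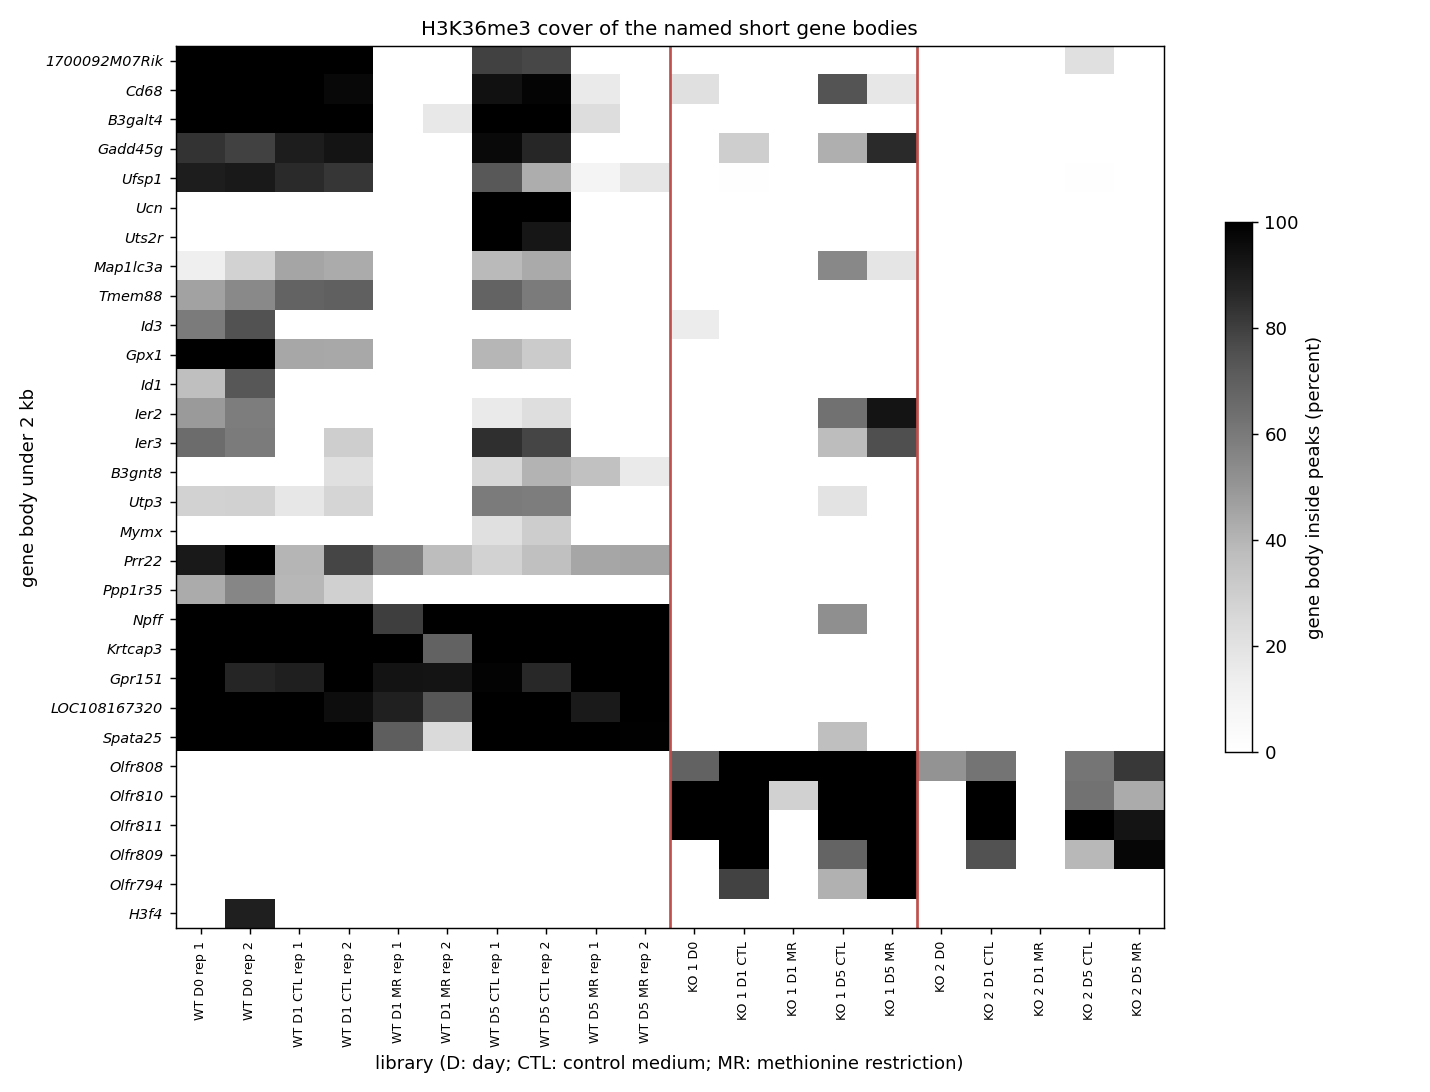
Percent of each named short gene body inside peaks in all 20 libraries (grey scale, 0 white to 100 black). Vertical lines separate WT, KO line 1 and KO line 2. Rows are the genes named by the rule, in the order of the comparisons, without those named only as list members or as nearest to 2 kb. Gadd45g, Ucn and Uts2r are at 0% in the 4 restricted WT columns, and the 5 olfactory receptor rows are at 0% in all WT columns.

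During differentiation in control medium the counts of marked short bodies were 37 and 42 at day 0, 29 and 31 at day 1, and 41 and 32 at day 5. Day 1 lay below day 0 without overlap (-24.1% in the mean), both day 5 libraries lay above day 1, and day 5 overlapped day 0. Longer stand-alone bodies also fell without overlap, from 4533 and 4175 at day 0 to 3563 and 3794 at day 1 (-15.5% in the mean). The lists spanned 179 and 159 Mb at day 0 and 140 and 150 Mb at day 1. An exact permutation test of the variance of 3 group means over 90 arrangements gave p = 0.267 (adjusted 0.333) for the share and 0.8 for the log2 ratio to longer bodies, but its smallest possible p is 0.0667, so it could not pass 0.05. From day 0 to day 1, limma called 9 of the 95 lower and 2 higher, where 5.64% and 0.961% of all tested bodies were. Of the 9, 6 passed the filter through day 0 alone, and without such bodies 3 of 82 were lower (3.66%), against 5.24% of all. When only the 4 libraries compared were fitted, limma called 0 lower and 0 higher (22 at an unadjusted p under 0.05), also 0 over all bodies, so the day 1 calls below rest on the spread shared with the other groups. The named falls to day 1 then had limma adjusted p of 0.128 to 0.175. From day 0 to day 5 it called 18 lower and 7 higher, where 15.6% and 12% were. Without bodies that passed through 1 compared group alone, 11 of 78 were lower (14.1%) and 4 higher (5.13%), against 15.3% and 10.5% of all. Both comparisons use the same day 0 libraries.

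Id1 and Id3, whose proteins bind and block the bHLH partners of MyoD, had cover at day 0 and in no later WT library. Id3 was at 59.6% and 74.7% at day 0 and at 0% in the other 8 WT libraries, a difference of -67.2 points. Id1 was at 36.4% and 72.7% at day 0 and at 0% in the other 8, and the day 0 replicates differ widely (-54.5 points). The immediate early gene Ier2 was at 48.8% and 58.6% at day 0, 0% at day 1 and 15.9% and 22.2% at day 5. Ier3, a stress-response gene, went from 65.1% and 59.5% to 0% and 30.0% at day 1 and was at 84.7% and 78.1% at day 5. Its difference to day 1 was -47.2 points (limma adjusted p = 0.0183). Gpx1 (glutathione peroxidase 1) was at 100% in both day 0 libraries, at 44.4% and 44% at day 1, and at 39.7% and 31.1% at day 5.

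Mymx was the 1 tested gene of 3 in the muscle list with a higher call at day 5, a call that was built in because it passed the filter through that group. Mymx, which encodes the myomixer micropeptide of myoblast fusion, was at 0% at days 0 and 1 and at 21.3% and 30.2% at day 5 in control medium (25.7 points). Under restriction it was at 0% at day 5. Of the other bodies with more cover at day 5, Ucn (urocortin) was at 0% in every WT library except the day 5 control pair, both at 100%. Its peak there was 7347 and 6324 bp wide and touched a longer gene, and Ucn lies 362 bp from Trim54, a muscle RING-finger gene. Uts2r was at 100% and 92.4% in the same pair and at 0% in the other 18 libraries, under its own peaks of 1828 and 1601 bp that reached 17.3% and 25.7% of the promoter window shown above. Utp3, a gene of ribosome biogenesis, went from 28.1% and 28.4% to 59.7% and 58.9% (31.1 points, limma adjusted p = 0.00032). B3gnt8 went from 0% to 25.9% and 40.5% (limma adjusted p = 0.0187). To day 1, Map1lc3a (the autophagy protein LC3A) went from 13.1% and 27.8% to 45.1% and 43.1%, and Tmem88 from 45.9% and 54.5% to 68.2% and 69.3% (limma adjusted p = 0.0252 and 0.0437). Both of these calls were lost when either day 1 control library was left out, at limma adjusted p of 0.096 to 0.16.
Among falls to day 5, Prr22 went from 91.3% and 100% to 28.1% and 36.3%, and Ppp1r35, a centriole protein gene, from 43.1% and 55.5% to 0% and 0%.

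Histone genes stood almost empty, as did most short bodies: 93.8% of stand-alone and 74.5% of overlapping ones were never touched in WT. Of 69 short histone bodies, 3 were touched by a peak in any WT library and 1 was marked. That one, H3f4 on chromosome 11 inside the longer gene Trim17, was at 89.3% in 1 day 0 library and at 0% in the other 19 libraries. H2aj was at 13.3% and 19.9% at day 0, and at 0% in the other 8 WT libraries. H4c1 was at 0% to 29.0% in WT, while its promoter window shown above was covered in 6 of 10 WT libraries and 7 of 10 KO libraries, to 100% at most in each arm. H4f16 was at 51.7% in the day 5 control library of KO line 2 and at 0% elsewhere. Histone genes of a class are near-identical copies, and reads that map to several of them may have been discarded or split before the lists were made, so their low cover is uncertain.

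Of 16 stand-alone early response and stress genes, 10 were touched and 7 were marked in at least 1 WT library, and 8 were tested. In the list 2 fell at restricted day 1 (Gadd45g and Hspb1) and 5 at restricted day 5 (also Ier2, Ier3 and Junb), with 0 higher. The 2 of 8 lie below the 35.8% of all tested bodies called lower at day 1, and the 5 of 8 lie above the 41.4% at day 5. Id1, Id3 and Ier2 of the 8 passed the filter through day 0 alone and were at 0% in both day 1 control libraries. They could not be called lower at day 1, nor could Id1 and Id3 at day 5, so these shares were limited in advance. Junb, an AP-1 subunit gene, was at 55.2% and 73.3% in the day 5 control libraries and 0% under restriction, but at day 0 it was at 0% in 1 replicate and 58.5% in the other. Of 10 stand-alone respiratory chain genes, 7 were touched, 5 were marked at least once and 7 were tested. Cox5b, Cox7a1, Cox7c and Ndufaf3 fell at both restricted days and 0 rose, which is 4 of 7 where 35.8% and 41.4% of all tested bodies fell. Of the 95 tested stand-alone short bodies, 51.6% and 52.6% fell, near that share. Cox7a1, the heart and muscle isoform of a cytochrome c oxidase subunit, was at 56.0% and 78.1% against 4.62% and 0% at day 1. From day 0, limma called 0 of the 7 at day 1 or day 5, where 5.64% and 15.6% of all tested bodies were lower, and day 1 was not compared with day 5. Cox8b, the other muscle isoform, was at 29.8% and 34.1% against 40.5% and 3.46% at day 1, and its restricted pair spans the control pair. Mrps26 of the mitochondrial ribosome was marked in 1 WT library, at 54.3%, and its 2 stand-alone partners Mrpl34 and Mrps34 reached 21.1% and 14.3%. Of 5 stand-alone muscle genes, Cox7a1 and Cox8b were marked in WT, Mymx and Tcap were touched at day 5 alone, and Myf6, a myogenic factor, was at 0% throughout.

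Lists of genes of other tissues were at or near 0, as were most stand-alone short bodies, of which 93.8% were never touched in WT. Of 73 stand-alone keratin-associated and cornified envelope genes 1, Sprr1a, was touched in WT, to 25.7% at most. Of 53 stand-alone interferon and defensin genes 0 were touched in WT. Of 1186 stand-alone chemosensory receptors, 3 were touched in WT and 1 was marked: the taste receptor Tas2r143, at 60.5% and 26.9% at day 0. Olfr543 reached 33.6%.

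Setd2 KO libraries held fewer marked short bodies over the whole set. KO line 1 had 5 on day 0, 10 and 1 on day 1 (control, then restricted) and 16 and 17 on day 5. KO line 2 had 1, 5, 0, 5 and 3 in the same order. The WT mean share was 0.996 percentage points higher (two-sided exact permutation test within condition, 7776 arrangements, p = 0.000772, adjusted 0.00386). The 10 KO libraries come from 2 lines, each used in every condition, and the test treats them as independent, so its p can be too small. The difference was 0.202 points (exact permutation p = 0.052) for bodies under 1 kb, and -0.11 points (p = 0.248), the opposite direction, for bodies at least 5 kb from any longer gene. KO line 1 at restricted day 5, with 17, lay above the WT libraries of that condition, with 13 and 14, and in the other 4 conditions both WT libraries lay above both KO lines. Of longer stand-alone bodies KO line 1 had 156, 124, 0, 1342 and 512 marked and KO line 2 had 0 in each condition. KO lists hold far less covered sequence, as given above, and the part of list length in this difference was not tested for the KO lines.

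Many bodies marked in KO lists were not marked in WT. Of the 32 stand-alone short bodies marked in at least 1 KO library, 22 were marked in no WT library and 16 of the 22 were chemosensory receptors. That is 68.75% of the 32 and 6 of 16 (37.5%) without receptors, against 60 of 1380 longer stand-alone bodies (4.35%), a difference that was not tested. The 5 with the highest mean in KO line 1 were olfactory receptor genes of 1 cluster on chromosome 10, and all 5 were at 0% in the 10 WT libraries. Olfr808 was at 68.6% at day 0 and 100% in the other 4 libraries of KO line 1, and at 50.8%, 62.0%, 0%, 61.3% and 81.8% in KO line 2. Olfr811 was at 100% in 4 libraries of KO line 1 and at 0% at restricted day 1, and at 0%, 100%, 0%, 100% and 92.6% in KO line 2. Its AT-rich promoter window shown above was covered in 7 of 10 KO libraries. Olfr810 was at 100% in 4 libraries of KO line 1 and 28.2% at restricted day 1, and Olfr809 and Olfr794 were covered in 3 libraries of that line. At restricted day 1, where the KO lists span 0.307 and 0.0082 Mb, Olfr808 and Olfr810 alone of the 5 had cover, both in KO line 1.

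The cluster from Olfr9 to Olfr827 holds 58 receptors of this size within 1221 kb (chr10:128989914-130211128). In KO line 1, 3.20% of its span was inside peaks at day 0, 9.80% and 0.850% at day 1 in control and restricted medium, and 8.37% and 12.3% at day 5. In KO line 2 the span was covered to 0.431%, 2.66%, 0%, 3.0% and 3.3%. In the 10 WT libraries it was at most 0.0341%. A total of 12 of its receptors were marked in at least 1 KO library and 0 in WT. Of 71 receptor clusters (receptors less than 500 kb apart), 4 held a receptor marked in a KO library and 1 held one marked in WT. Olfactory receptors are a large family of similar sequence, and how reads of similar copies were placed is not known, so the identity of single receptors is uncertain.

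**Figure D5:**
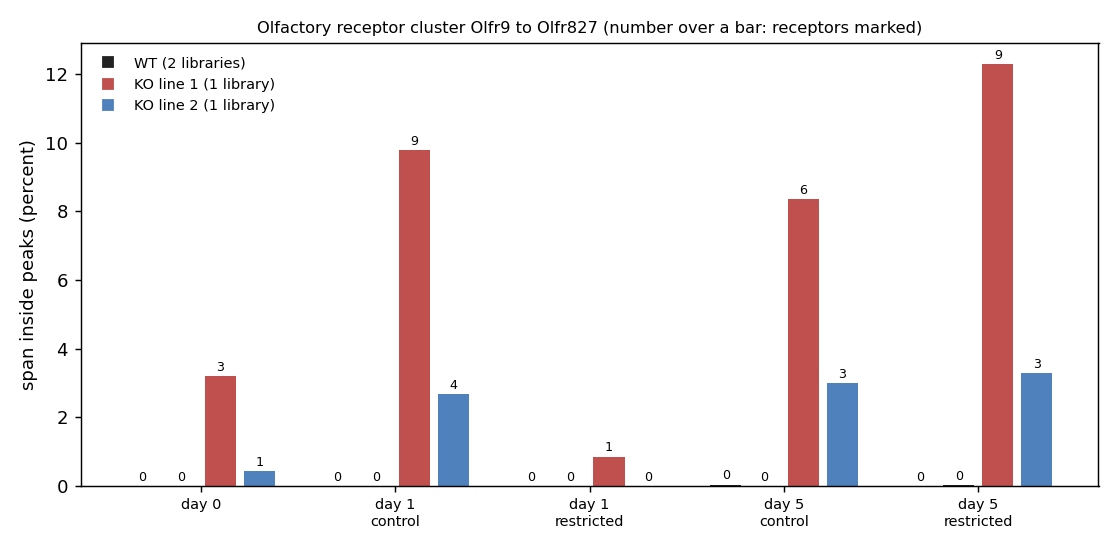
Percent of the span of the olfactory receptor cluster from Olfr9 to Olfr827 inside peaks (y axis) in the 2 WT libraries, KO line 1 and KO line 2 of each condition (x axis); numbers over the bars count the receptors with at least 50% cover. KO line 1 reaches 12.3% with 9 receptors at restricted day 5, and WT bars are at 0.0341% or less.

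Beside the receptors, 6 of the 22 bodies were other genes, named after their values were seen: Map1lc3a, Ifitm3, Ccl7, Krtap1-5, Sprr2k and H4f16. Ccl7, a monocyte chemokine gene, was at 0% in all WT libraries and at 24.8% and 78.0% at day 5 in control and restricted medium in KO line 1. The 10 bodies marked in both arms included Gadd45g, which in KO line 1 was at 0%, 29.7%, 0%, 42.1% and 85.8% in the order of the conditions, and Ier2, at 63.0% and 92.8% at day 5. Both were at 0% in KO line 2. Each KO value is a single library.

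The bodies inside a longer gene held a higher share of marked bodies, a difference that was not tested. In WT, 9 to 32 of the 286 overlapping bodies were marked (3.15% to 11.2%), and 213 (74.5%) were never touched. Without receptors the stand-alone range was 1.12% to 5.24%, as given above. The groups gave 10.8% ± 0.494 (SD, n = 2) at day 0, 8.39% ± 1.48 (SD, n = 2) and 3.85% ± 0.989 (SD, n = 2) at day 1 in control and restricted medium, and 9.09% ± 0.989 (SD, n = 2) and 5.77% ± 0.247 (SD, n = 2) at day 5. A peak there cannot be told apart from a peak of the host gene. The 6 bodies marked in all 10 WT libraries were Gm46731, Msmp, Sap25, Eid3, Gm48175 and Gm46415, in Fbh1, Rgp1, Gm20605, Txnrd1, Rtcb and Zfp346. Sox15, a SOX factor expressed in muscle precursors, overlaps Mpdu1 and was at 100% in the 6 WT libraries without restriction, at 43.6% and 26.1% at restricted day 1 and at 65.3% and 94.6% at restricted day 5. Of the 56 overlapping bodies that were tested, 21 were lower and 0 higher at restricted day 1 (limma), with 0 higher also at an unadjusted p under 0.05, and 21 were lower and 4 higher at restricted day 5. The lower calls are 37.5% on each day, near the 35.8% and 41.4% of all tested bodies, and the 4 are 7.14% where 4.26% of all were higher. The 4 were Gm46731 (in Fbh1), Gm6109 (in Jmy) and LOC101056296 and LOC101056300 (both in Tiam2). Gm46731 went from 73.5% and 56.2% to 100% in both restricted libraries (35.1 points, limma adjusted p = 0.000546).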

How the data were processed

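The libraries measured H3K36me3 in C2C12 cells, with 1 deposited list of broad peaks per library, and the input was not used here. The genome build GRCm38 is given in the submitters' processing notes, while the peak caller, its control and its read filters are not given in the sources used here. Per the labels' protocols, Drosophila chromatin was added as a spike-in and reads were single-end, and peak lists were used as deposited, without rescaling. Each list gives, per peak, a fold enrichment over background (a ratio), −log10 p and −log10 q values and a score, all made by the authors. The deposited score was not used. The authors' fold ranked peaks within a list, the authors' −log10 q filtered them (lowest value over the lists 1.00), and all other values below come from peak positions.

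Peaks were merged per library and intersected with RefSeq gene bodies (GRCm38.p6), and the percent covered was computed for each body. The first and last parts of a body (split at its midpoint) and the promoter windows used RefSeq strands, known for 1901 of the 2274 members. Library shares were compared by exact permutation tests with Benjamini-Hochberg adjustment over 5 tests. Bodies were tested with limma 3.58.1 (trend and robust settings, 5 WT groups of 2 libraries, R 4.3.3) over the 9681 bodies with a mean WT cover of at least 5%, with adjusted p-values called under 0.05. The log2 ratio of shares used counts with 0.5 added and totals with 1 added. Both steps were tested on simulated data. Depth is unknown, so no counting interval is given.

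The named genes are up to 5 stand-alone bodies in each direction per comparison with the largest difference among those called whose libraries do not overlap. To them come the 5 with the highest mean in WT and in KO line 1, marked histone genes, the 2 members with the highest mean of each list and the bodies nearest to 2 kb. Lists are symbol patterns, and the small ribonucleoprotein pattern matched 0 members, while of the 2 proteasome and RNA polymerase members, both overlapping, Polr2i reached 12.4% in WT and 0 were marked. Of 12 homeobox, SOX, FOX and POU members 1, Sox15, was marked in WT, and Pou5f2 reached 26.0% in 1 library. The members and lists were chosen with earlier results of these data known. The alternatives were stricter peak lists, lists trimmed to equal covered length, other thresholds, length limits and definitions of stand-alone, leaving out each WT replicate, and the replicate number as a block. Added after the data were seen were the interaction of medium and day, shares without receptors or without restricted day 1, the parts of bodies, peak widths, receptor clusters and counts by class. The neighbour of 1 named gene is not reported here.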

Additional observations from a re-analysis of the deposited data

Results flagged for a closer look

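The effect of restriction differed between day 5 and day 1 in 8 of the 95 tested stand-alone bodies (limma interaction, added after the data were seen): 6 were lower, where 3.53% of all tested bodies were, and 2 were higher, where 1.58% were. The balance turned with the peak lists: limma called 4 lower and 6 higher with stricter peaks, and 1 lower and 6 higher in lists of equal covered length. The difference was -100 points for Ucn (limma adjusted p = 1.29e-05), -96.2 for Uts2r (3.77e-05), -66.4 for Ier3 (0.0167), -39.4 for Ifitm5 (0.045), -37.4 for Utp3 (0.00492) and -25.7 for Mymx (0.00708). Ucn, Uts2r and Mymx had cover in the day 5 control pair alone and passed the filter through it, so their p-values are built in and support nothing. It was 21.4 points for 1700092M07Rik (0.0337) and 33.9 for Ppp1r35 (0.023), and both were at 0% in the 4 restricted libraries and had less cover at day 5 than at day 1 in control medium. Ifitm5, a gene of mineralizing bone cells, was at 100% at day 1 in control medium and at 100% and 77.6% under restriction, while at day 5 it was at 100% and at 44.8% and 54.0%.

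At day 5, 6 bodies had more cover in the restricted than in the control library of KO line 1, while each restricted WT library lay below each control one. That is 6 of the 61 stand-alone short bodies with such WT libraries (9.84%), against 512 of 5761 longer ones (8.89%). These differences between WT and the line were not tested, and each KO value is 1 library. The restricted minus control cover in KO line 1 was 46.4 points for Junb, 43.8 for Gadd45g, 38.4 for Ier3 and 29.8 for Ier2, against WT differences of -64.2, -91.8, -81.4 and -19.1 points. It was 11.8 points for Ifitm3, an antiviral membrane protein gene, and 8.14 for Tbcc, a tubulin folding cofactor gene, against -26.1 and -19.5 in WT. The control and restricted lists of KO line 1 at day 5 spanned 74.1 and 45.8 Mb. Between the same libraries the fibroblast markers Dcn, Dpt and Col1a1 went from 7.81% to 47.6%, 0% to 18.1% and 77.5% to 86.5%, with Pdgfra at 0% in both, and the myoblast markers Cdh15 and Des from 39.1% to 11.2% and 49.6% to 39.6%. The part of list length and of these markers in the differences was not tested.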

How the results depend on the processing

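Of 176 alternative values of the shares and counts of calls, 152 kept their direction and side of the threshold or stayed within 1.5 times. The WT minus KO share was 0.202 points (exact permutation p = 0.052) for bodies under 1 kb and reversed to -0.11 points (p = 0.248) for bodies at least 5 kb from any longer gene. Without receptors it was 3.01 points (exact permutation p = 0.000257, the smallest that can be given), and without restricted day 1 it was 1.11 (p = 0.00463). The log2 ratio under restriction was -0.27 (exact permutation p = 0.333) with 75% cover as the mark.

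The stricter peaks left 75 stand-alone short bodies to test, equal covered length 57 and a mean of 20% 51, in place of 95. Over all bodies the share called lower was then 19.8% at restricted day 1 and 20.4% at restricted day 5 at equal length, and 28.3% at day 5 with stricter peaks. The share of all bodies called higher was 8.07% and 15.2% at equal length, against 2.3% and 4.26% in the full lists, and 7.29% at day 5 with stricter peaks. Bodies called lower at restricted day 1 went from 49 to 28 in lists of equal covered length (27 shared), and at restricted day 5 from 50 to 32 with −log10 q of at least 3, 21 at equal length (18 shared) and 31 with a mean cover of at least 20%. At day 5, 1 (Prr22) was called higher when only the 4 libraries compared were fitted. From day 0 to day 1 the 9 lower became 2 at equal length, 2 at 20% and 0 with only the 4 libraries, and the 2 higher became 0 with stricter peaks, at equal length and with the 4 libraries. From day 0 to day 5 the 18 lower became 10 (equal length) and 5 (20%), and the 7 higher became 2 (stricter), 2 (equal length) and 3 (20%). The cause of these shifts beyond the fewer bodies tested was not tested. Leaving out 1 WT library at a time gave 33 to 39 lower and 0 to 1 higher (Tas2r143, without restricted day 1 replicate 2) at restricted day 1, 38 to 47 lower at restricted day 5, 7 to 14 lower and 1 to 3 higher to day 1, and 12 to 20 lower and 5 to 10 higher to day 5; the 14 came without day 0 replicate 1. A lone library is then assumed to vary like the other groups. Of 244 values of named members, 214 kept their call, 30 lost it and 0 changed sign.

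Same-numbered WT replicates did not deviate in the same direction: 10 correlations of replicate differences between groups were -0.427 to 0.0574. The lowest was between day 0 and day 1 in control medium. Whether the numbers pair samples is not given in the labels, and these correlations cannot settle it. With the replicate number as a block, the counts were 49 and 51 lower under restriction at days 1 and 5, 9 lower and 1 higher to day 1 and 19 lower and 6 higher to day 5, and the share and the log2 ratio under restriction (-1.06 and -0.79) had an exact permutation p of 0.125, the smallest that 16 arrangements allow.

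Peak lists carry no depth, so a body without a peak is one where the mark was not called, not one shown to lack it. The median WT peak of 767 to 909 bp is as long as many of these bodies, and 1 peak can decide a body's class.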

Other observations

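Agreement between replicates was compared as the share of bodies marked in either that were marked in both. At restricted day 1 it was 6 of 16 stand-alone short bodies (37.5%), against 75.1% of longer bodies. At day 0 the values were 32 of 47 (68.1%) and 83.8%, at restricted day 5 12 of 15 (80%) and 86.7%, and in control medium 27 of 33 (81.8%) and 85.4% at day 1 and 30 of 43 (69.8%) and 87.2% at day 5. These shares were not tested.

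Hspb9, a small heat shock protein gene of 647 bp next to Rab5c, was at 100% in the 6 WT libraries without restriction, under a peak that also touched a longer gene in each. Under restriction it was at 0% and 67.2% at day 1 and at 100% and 98.6% at day 5. Ftl1, the ferritin light chain gene, was marked in the same 6 libraries, at 61.6% to 90.6%, and at 70.3% and 60.2% at day 5 in KO line 1, and it has 2 annotated pseudogene copies. Both genes were picked after their values were seen.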
